A study of Mus musculus with 10 samples.

Results

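AMPA receptors are the ion channels that carry most fast excitatory transmission between neurons. Each channel is assembled from GluA subunits, which are encoded by Gria1, Gria2, Gria3 and Gria4, and it travels with auxiliary proteins, of which the transmembrane AMPA receptor regulatory proteins (TARPs) are the best known. Edited GluA2 carries arginine in place of glutamine in the pore and keeps calcium out of the channels that contain it, so the amount of GluA2 relative to the other subunits is a much-studied property of a neuron. Class I TARPs slow the channel's closing and desensitization and tie the receptor to the synaptic scaffold. In the nucleus of the solitary tract (NTS), the brainstem region that receives vagal input from the gut, glutamate from vagal fibres acts on AMPA receptors of the neurons there.

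The 10 genes were the 4 AMPA receptor subunit genes (Gria1, Gria2, Gria3 and Gria4) and the 6 TARP genes (Cacng2, Cacng3, Cacng4, Cacng5, Cacng7 and Cacng8), taken by name and matched by Ensembl identifier; all 10 were among the 25006 genes listed. They were measured in 10 single neurons of the mouse NTS, 5 with the firing property called type 2 in the labels and 5 with the one called type 1. All neurons came from C57BL/6 mice aged 3 months that carried LepRb-Cre and Halo-eYFP, so that cells with leptin receptor expression at some stage were fluorescent, and no treatment is given in the labels. Cytoplasm and nucleus were drawn into a patch pipette from acute slices of 285 micron. What separates the firing types, the sex of the mice and which neurons share an animal are not stated, so each firing type counts as 1 sample. No test between types was made, every SD is a spread between single cells, and every interval covers counting error only.

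The libraries held 9796799 to 41844825 counts, with 12195253 to 41608996 in type 2 neurons and 9796799 to 41844825 in type 1 neurons. The 8 neuronal marker genes summed to 6245 to 8649 CPM (counts scaled to a library total of 1000000) in type 2 neurons and 5247 to 6931 CPM in type 1 neurons. Gcg, the glucagon precursor, lay at 3556 to 17680 CPM in type 2 neurons and 0 to 14.1 CPM in type 1 neurons, and Gal, the galanin precursor, lay at 0 to 149 CPM in type 2 neurons and 1859 to 5124 CPM in type 1 neurons. Lepr, the leptin receptor, lay at 0.890 to 50.7 CPM in type 2 neurons and 1.15 to 122 CPM in type 1 neurons. Markers of other cells were present unevenly. The 14 microglial markers, led by Ctss, summed to 4.25 to 1846 CPM in type 2 neurons and 0.0668 to 807 CPM in type 1 neurons, and type 2 neurons 6-2, 9-2 and 9-4 held 1846, 524 and 1685 CPM of them; the type 1 maximum was in 1-2. The 10 astrocyte markers summed to 1045 to 1775 CPM in type 2 neurons and 150 to 673 CPM in type 1 neurons; Aldoc, an aldolase, made up most of this, and the astrocyte glutamate transporter Slc1a3 was at 0 in every neuron. No oligodendrocyte precursor marker reached 10 CPM in any neuron, with sums of at most 4.74 CPM in type 2 neurons and 2.96 CPM in type 1 neurons. Oligodendrocyte markers, led by Mbp, summed to 39.2 to 220 CPM in type 2 neurons and 2.14 to 1047 CPM in type 1 neurons.

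The pore-lining loop of the 4 subunits holds the codon at which GluA2 differs from its relatives in the finished protein. The stretches below are the coding strand around that codon, from the GENCODE M21 transcripts on GRCm38 (mm10), with the codon in capitals. They are shown because they show that the 4 genes encode the same residue at this point.
Gria1, chr11:57243079-57243111, plus strand, exon 11: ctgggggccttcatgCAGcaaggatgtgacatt
Gria2, chr3:80706896-80706928, minus strand, exon 11: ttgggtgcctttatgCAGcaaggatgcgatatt
Gria3, chrX:41610250-41610282, plus strand, exon 11: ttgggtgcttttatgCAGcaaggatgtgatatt
Gria4, chr9:4464122-4464154, minus strand, exon 12: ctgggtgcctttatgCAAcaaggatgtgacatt
The capitals are codon 600 of the Gria1 reading frame, codon 607 of Gria2, codon 612 of Gria3 and codon 608 of Gria4. The 4 stretches differ in their bases and encode 1 and the same peptide over 11 codons, with glutamine at the marked codon. Arginine at this position of GluA2 comes from A-to-I editing of the RNA, and counts per gene carry no reading of it.

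Class I TARPs end in a short motif that binds PDZ domains of scaffold proteins. The last 30 coding bases before the stop codon are given below for each TARP gene, from the same transcripts, with the last 4 codons in capitals. They are shown because they split the family into the classes used for the TARP mix.
Cacng2, chr15:77995152-77995181, minus strand: aacacagccaaccgccggACCACGCCCGTA
Cacng3, chr7:122768814-122768843, plus strand: aatccggccaacagacgtACCACGCCTGTC
Cacng4, chr11:107734783-107734812, minus strand: agcatgctgaaccggcggACGACTCCCGTG
Cacng8, chr7:3415573-3415602, plus strand: aacacgctcaacaggaaaACCACGCCCGTG
Cacng5, chr11:107877355-107877384, minus strand: gactatgaccagatgtcaTCATCTCCCTGC
Cacng7, chr7:3366916-3366945, plus strand: gaccatctccacatctccACTTCGCCGTGC
In 4 of the 6 genes, Cacng2, Cacng3, Cacng4 and Cacng8 (class I), the capitals encode the same residues. Cacng5 and Cacng7 (class II) end differently.

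The members share little exact sequence with each other or with other genes. Pairwise identity of the coding sequences ran from 68.7% to 72.8% among the Gria genes and from 55.8% to 72.1% among the TARP genes. At most 1.49% of the 31-base words of a Gria gene's transcripts occurred in any other gene; the highest share in a TARP gene was 6.45%, in Cacng2. Cacng2 also shares 323 exon bases with the antisense gene A730060N03Rik, and since the strand option of the counting is not given in the sources used here, a part of its counts could be antisense.

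Type 2 neurons held a smaller share of Gria2 in their AMPA receptor mRNA than type 1 neurons did. Per length of exon, the only scale on which levels of different genes are compared here, Gria2 made up 31.5% ± 8.55 of the summed Gria level in type 2 neurons and 64.3% ± 14.4 in type 1 neurons (SD, n = 5 each). In the type 2 neurons 6-2, 10-1, 10-3, 9-2 and 9-4 the share was 34.3%, 39.1%, 39.3%, 22.8% and 22.0%. In the type 1 neurons 1-1, 1-2, 4-3, 8-2 and 9-1 it was 57.0%, 67.6%, 61.7%, 48.2% and 86.8%. Every type 2 neuron lay below every type 1 neuron, and the difference of the means was -32.8 percentage points. The ranges also did not overlap in any of the 16 alternatives with values per neuron. Of these, only those with another length or no length correction could have made them overlap. The rest, among them the 10 that leave out 1 neuron each, only take neurons away, which cannot make separate ranges overlap. The difference was -25.1 percentage points without neurons 6-2, 9-2 and 9-4. The summed astrocyte markers, made up mostly of Aldoc, also separate the types, as above. The list as a whole was mixed. Of the 6 astrocyte markers that could be compared, 4 were higher in type 2 neurons and 2 lower, among them S100b (difference -2.22). Aldoc was the only one of them with separate ranges, at 856 to 1775 CPM in type 2 neurons and 147 to 623 CPM in type 1 neurons. The part of these markers in the share was not tested.

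Expressed as a ratio, the other 3 subunit genes together held 1.55 to 3.55 times the per-length level of Gria2 in type 2 neurons and 0.153 to 1.08 times its level in type 1 neurons. Which subunit stood beside or above Gria2 differed from neuron to neuron among type 2 cells. Gria3 was the largest subunit in neurons 6-2 and 10-1, with 35.3% and 43.0% of the Gria level. In 9-2 Gria1 led with 59.5%, and in 9-4 Gria4 led with 31.9%, close to Gria3 with 23.2% and Gria1 with 22.8%. In 10-3 Gria2 and Gria4 were level at 39.3% and 39.2%. Type 1 neurons showed the opposite picture on this scale, with Gria2 the largest subunit in all 5. The leaders named for type 2 neurons depend on the length used. The exon union has 15548 bases for Gria2 and 6043 to 9859 for the others, while coding lengths are 2649 to 2721 bases. In plain CPM, Gria2 was highest in 6-2, 10-1, 10-3 and 9-4 (369, 300, 484 and 195 CPM). In 9-2, Gria1 stood at 352 CPM and Gria2 at 347 CPM. The minor subunits of type 1 neurons also varied: in 1-1 Gria1 took 42.9% and Gria4 0.0319%, while in 1-2 Gria4 took 24.4% and Gria1 8.02%.

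**Figure D1:**
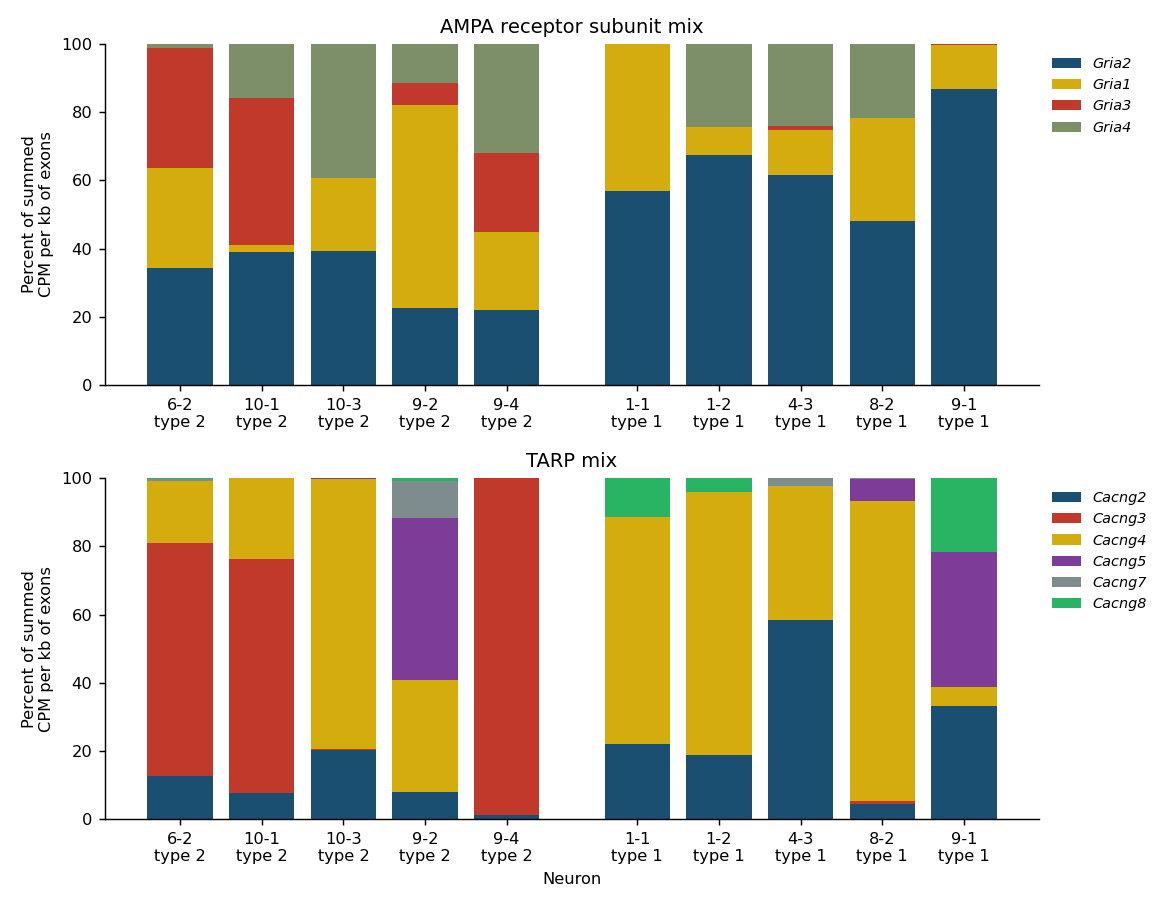
Mix of AMPA receptor subunit genes (top) and TARP genes (bottom) in each neuron, as a percent of the family's summed CPM per kb of exons; type 2 neurons stand on the left and type 1 neurons on the right. The Gria2 share is at most 39.3% in type 2 neurons and at least 48.2% in type 1 neurons, while the leading TARP gene changes from neuron to neuron.

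Per kb of exon union, the order of the subunit genes was accordingly flat in type 2 neurons and steep in type 1 neurons. In plain CPM it was not flat in type 2 neurons. There Gria2 averaged 339 ± 105 CPM, Gria1 132 ± 130, Gria3 129 ± 99.9 and Gria4 87.2 ± 72.6 (SD, n = 5). Per kb, Gria1 averaged 21.9 ± 21.6 CPM in type 2 neurons, Gria2 21.8 ± 6.76, Gria4 13.8 ± 11.5 and Gria3 13.1 ± 10.1 (SD, n = 5). No neighbours in that order differed beyond their spread. In type 1 neurons, Gria2 averaged 36.9 ± 10.7 CPM per kb, Gria1 12.2 ± 9.47, Gria4 10.2 ± 9.52 and Gria3 0.169 ± 0.322 (SD, n = 5). Gria2 stood above Gria1 in every type 1 neuron, Gria1 and Gria4 lay within each other's spread, and Gria3 was lowest on average. The summed level of the 4 genes was similar: 70.6 ± 19.1 CPM per kb in type 2 neurons and 59.5 ± 22.9 in type 1 neurons (SD, n = 5 each).

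Gria2 (ENSMUSG00000033981, chr3:80681450-80802835, minus strand) was detected in all 10 neurons, detection meaning at least 10 CPM and 3 counts. Its level was 369, 300, 484, 347 and 195 CPM in type 2 neurons 6-2, 10-1, 10-3, 9-2 and 9-4, against 294, 707, 579, 694 and 593 CPM in type 1 neurons 1-1, 1-2, 4-3, 8-2 and 9-1. Type 1 neurons 1-2, 4-3, 8-2 and 9-1 lay above every type 2 neuron, and 1-1 lay below 4 of the 5. The difference, type 2 minus type 1, of mean log2(CPM + 1) was -0.75, a fold of 0.594 on this scale, which understates the change of low genes. Without 1-1 the ranges did not overlap and the difference was -0.98. Gria2 varied little between neurons: its SD of log2(CPM + 1) over the 10 neurons, 0.615, was at percentile 3.45 of the 11923 genes that averaged 1 CPM or more. Only 14.2% of those genes were detected in all 10 neurons, as Gria2 was, and no percentile among these was taken.

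Gria1 (ENSMUSG00000020524, chr11:57011387-57330244, plus strand), whose GluA1 subunit is known from studies of synaptic plasticity, did not separate the types. It lay at 122, 6.34, 103, 352 and 78.9 CPM in type 2 neurons 6-2, 10-1, 10-3, 9-2 and 9-4. It lay at 86.0, 32.6, 47.2, 169 and 34.6 CPM in type 1 neurons 1-1, 1-2, 4-3, 8-2 and 9-1. The highest and the lowest neuron were both type 2, and the difference of means, 0.33 on the log2 scale, was smaller than the SD within either type, 2.06 in type 2 neurons and 0.99 in type 1 neurons. Its sign turned without 9-2 (-0.23), without 6-2, 9-2 and 9-4 (-1.15) and in libraries over 20000000 counts (-0.19).

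Gria3 (ENSMUSG00000001986, chrX:41400854-41678601, plus strand) was present in type 2 neurons and nearly missing from type 1 neurons. Its level was 241, 210, 0.994, 61.3 and 131 CPM in type 2 neurons 6-2, 10-1, 10-3, 9-2 and 9-4, against 0.200, 0.0722, 7.35, 0.191 and 0.542 CPM in type 1 neurons 1-1, 1-2, 4-3, 8-2 and 9-1. It was detected in 4 of 5 type 2 neurons (80.0%, 95% Clopper-Pearson interval 28.4% to 99.5%) and in 0 of 5 type 1 neurons (0 to 52.2%). Neuron 10-3 was the exception among type 2 cells and lay inside the type 1 range, and 4-3 was the highest type 1 neuron with 72 counts. The difference was 5.07 on the log2 scale, a fold of 33.5. Leaving out either 10-3 or 4-3 made the ranges separate, with differences of 6.30 and 5.62. Summed over neurons, the level was 117 CPM (95% Poisson interval 115 to 119) in type 2 neurons and 0.903 CPM (0.735 to 1.10) in type 1 neurons. Of the 4 neurons with Gria3, 3 were those type 2 neurons with the most microglial marker reads (6-2, 9-2 and 9-4). Without these 3 the difference was 3.50, carried by 10-1, where the microglial markers summed to 4.25 CPM. Type 1 neuron 1-2 held 807 CPM of these markers, more than 9-2 with 524 CPM, and 0.0722 CPM of Gria3. The part of microglial RNA in the Gria3 level was not tested.

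Gria4 (ENSMUSG00000025892, chr9:4417896-4796234, minus strand), a subunit of fast-closing channels, was detected in 4 of 5 type 2 neurons and 3 of 5 type 1 neurons. In type 2 neurons 6-2, 10-1, 10-3, 9-2 and 9-4 it lay at 5.0, 49.5, 196, 70.6 and 115 CPM. In type 1 neurons 1-1, 1-2, 4-3, 8-2 and 9-1 it lay at 0.0668, 104, 91.7, 127 and 0.191 CPM. The ranges overlapped: type 1 neurons 1-2, 4-3 and 8-2 lay within the type 2 range, and 1-1 and 9-1 held 1 and 6 counts. The difference of 1.66 on the log2 scale was under the 4-fold limit used here and within the type 1 SD of 3.60. It ran from 0.65 to 2.46 with 1 neuron left out, and passed 4-fold without 6-2, 1-2, 4-3 or 8-2.

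**Figure D2:**
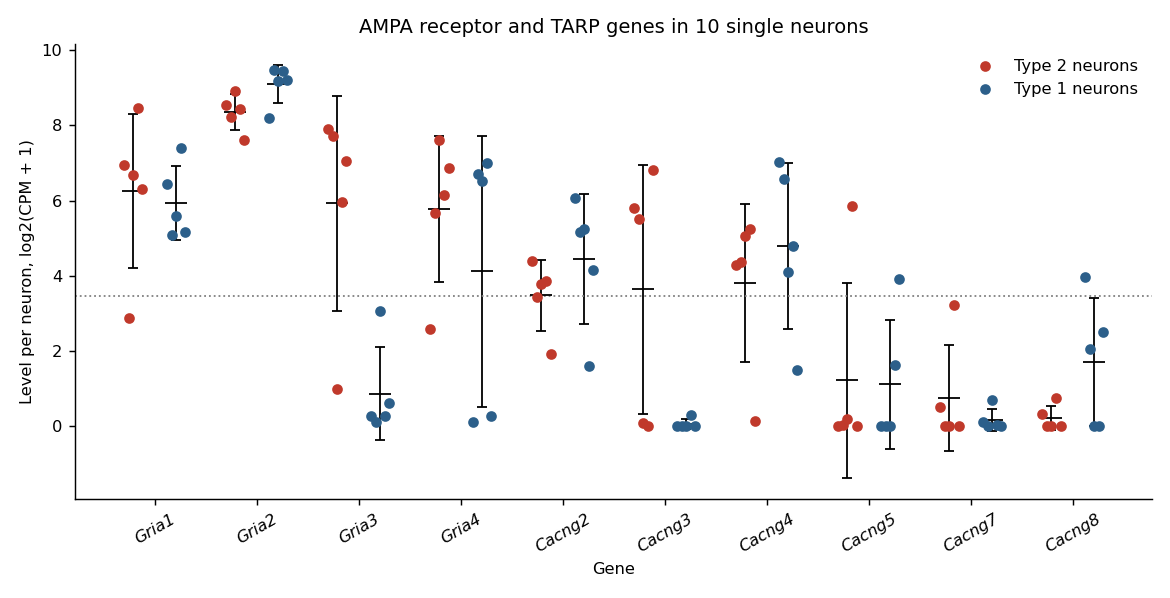
Level of the 10 genes in each neuron as log2(CPM + 1), type 2 neurons left and type 1 neurons right within each gene; the black bars are the mean and SD over the 5 neurons of a type, and the dotted line is the detection limit of 10 CPM. Gria2 is high in all 10 neurons, Gria3 is above the line in 4 type 2 neurons and no type 1 neuron, and Cacng3 in 3 type 2 neurons and no type 1 neuron.

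Among the class I TARPs, Cacng3 was above the detection limit in 3 of 5 type 2 neurons and 0 of 5 type 1 neurons. Cacng3 (ENSMUSG00000066189, chr7:122670492-122769393, plus strand) encodes TARP gamma-3. Its level was 54.4, 44.2, 0.0552, 0 and 111 CPM in type 2 neurons 6-2, 10-1, 10-3, 9-2 and 9-4, against 0, 0, 0, 0.215 and 0 CPM in type 1 neurons 1-1, 1-2, 4-3, 8-2 and 9-1. The 3 neurons with Cacng3 were also the 3 with the highest Gria3, and the other 2 type 2 neurons lay within the type 1 range. A count of 0 allows up to 0.0956 to 0.306 CPM in the 4 type 1 neurons concerned. Summed over neurons, the level was 40.0 CPM (95% Poisson interval 39.0 to 41.0, 5999 counts) in type 2 neurons and 0.0805 CPM (0.0368 to 0.153, 9 counts) in type 1 neurons. The difference was 3.58 on the log2 scale, a fold of 11.9. With a pseudocount of 10 CPM it was 1.74, under 4-fold. Without 6-2, 9-2 and 9-4, the type 2 neurons with the most microglial marker reads, it was 2.73. That value was carried by 10-1, as 10-3 held 0.0552 CPM. Type 1 neuron 1-2, with 807 CPM of microglial markers and 0 CPM of Cacng3, was kept.

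Cacng2, the gene of stargazin, the founding TARP, and Cacng4 had lower means in type 2 neurons, without separating the types and not in every set of neurons. Cacng2 (ENSMUSG00000019146, chr15:77991748-78120028, minus strand) lay at 20.1, 9.90, 12.8, 13.6 and 2.77 CPM in type 2 neurons 6-2, 10-1, 10-3, 9-2 and 9-4, against 66.5, 34.9, 36.6, 2.03 and 16.9 CPM in type 1 neurons 1-1, 1-2, 4-3, 8-2 and 9-1. Type 1 neurons 1-1, 1-2 and 4-3 were above every type 2 neuron, but 8-2 was the lowest of all 10. Cacng4 (ENSMUSG00000020723, chr11:107732357-107794557, minus strand) lay at 18.6, 19.6, 32.3, 37.0 and 0.0954 CPM in type 2 neurons 6-2, 10-1, 10-3, 9-2 and 9-4, against 131, 93.4, 16.1, 26.5 and 1.82 CPM in type 1 neurons 1-1, 1-2, 4-3, 8-2 and 9-1. The 2 highest Cacng4 values came from 1-1 and 1-2, and the lowest from 9-4, the neuron with the most Cacng3. The differences were -0.97 for Cacng2 and -0.98 for Cacng4 on the log2 scale, each within the SD of at least 1 type. With 1 neuron left out, the Cacng2 difference ran from -1.68 without 8-2 to -0.56 without 1-1, and the Cacng4 difference from -1.80 without 9-1 to -0.05 without 9-4. Both signs turned in libraries over 20000000 counts (0.37 for Cacng2 and 0.56 for Cacng4), and that of Cacng4 also in the 3 neurons whose number starts with 9 (1.20).

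Cacng8 (ENSMUSG00000053395, chr7:3390683-3415648, plus strand), best known as the TARP of hippocampal neurons, was low everywhere. It lay at 0.246, 0, 0, 0.666 and 0 CPM in type 2 neurons 6-2, 10-1, 10-3, 9-2 and 9-4, against 14.5, 3.17, 0, 0 and 4.72 CPM in type 1 neurons 1-1, 1-2, 4-3, 8-2 and 9-1. Only 1-1 passed the detection limit. The difference was -1.50 on the log2 scale, -0.93 without 1-1 and -0.42 with a pseudocount of 10 CPM. The longest annotated 3′ untranslated region of Cacng8 has 43 bases, against 547 to 3401 in the other 5 TARP genes; whether reads beyond it went uncounted was not tested.

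The class II TARPs were at 0 or a few counts in most neurons. Cacng5 (ENSMUSG00000040373, chr11:107874605-107915055, minus strand) lay at 0, 0.0240, 0.138, 57.0 and 0 CPM in type 2 neurons 6-2, 10-1, 10-3, 9-2 and 9-4, against 0, 0, 0, 2.10 and 14.1 CPM in type 1 neurons 1-1, 1-2, 4-3, 8-2 and 9-1. It was detected in 1 neuron of each type, 9-2 and 9-1. Cacng7 (ENSMUSG00000069806, chr7:3332955-3368221, plus strand) reached 8.31 CPM in 9-2, the same type 2 neuron, and at most 0.410 CPM in the other type 2 neurons and 0.612 CPM in type 1 neurons. Its mean over the 10 neurons, 0.942 CPM, was below the 1 CPM needed to enter the comparison with all genes. Cacng1 and Cacng6, gamma subunits of calcium channels that are not TARPs, had 0 counts in all 10 neurons.

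Single neurons thus differed in which TARP gene led. In type 2 neurons it was Cacng3 in 6-2, 10-1 and 9-4, with 68.2%, 68.5% and 98.7% of the summed per-length TARP level, Cacng4 in 10-3 with 79.1% and Cacng5 in 9-2 with 47.4%. In type 1 neurons it was Cacng4 in 1-1, 1-2 and 8-2, with 66.6%, 77.3% and 88.1%, Cacng2 in 4-3 with 58.3% and Cacng5 in 9-1 with 39.6%. Class I genes made up over 93% of the TARP level in 8 of the 10 neurons; the exceptions were 9-2 among type 2 neurons with 41.7% and 9-1 among type 1 neurons with 60.4%. Per length, type 2 neurons averaged 15.1 ± 16.6 CPM per kb of Cacng3, 6.02 ± 4.02 of Cacng4, 2.98 ± 6.65 of Cacng5 and 2.15 ± 1.14 of Cacng2, with Cacng7 and Cacng8 below 1 (SD, n = 5). Type 1 neurons averaged 15.0 ± 15.5 CPM per kb of Cacng4, 5.70 ± 4.39 of Cacng2, 1.91 ± 2.54 of Cacng8 and 0.843 ± 1.60 of Cacng5, with Cacng7 and Cacng3 below 0.1 (SD, n = 5). Neighbours in both orders lay within their spread.

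Per kb of exon union, the ratio of summed TARP to summed Gria level was 0.412 ± 0.208 in type 2 neurons. It was 0.529 ± 0.646 in type 1 neurons (SD, n = 5 each). The ratio of the summed per-length levels was 0.415, 0.469, 0.144, 0.320 and 0.71 in type 2 neurons 6-2, 10-1, 10-3, 9-2 and 9-4, against 1.65, 0.503, 0.189, 0.0908 and 0.211 in type 1 neurons 1-1, 1-2, 4-3, 8-2 and 9-1. The type 2 values lay within the type 1 range. This ratio depends on the length used, and no other length was tried for it. In plain CPM, the TARP sum averaged 88.7 and the Gria sum 687 in type 2 neurons. In type 1 neurons they averaged 93.0 and 713 CPM. Neuron 1-1, with the highest ratio, had the lowest Gria sum of the 10 neurons, 33.2 CPM per kb, and the highest TARP sum, 54.8 CPM per kb.

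Against all genes, 9 of the 10 members had a mean of at least 1 CPM and could be compared. A 4-fold difference was passed upwards in type 2 neurons by 2 of the 9, Gria3 and Cacng3, against 13.5% of the 11923 genes, and downwards by 0 of the 9, against 7.78%. No member had ranges that did not overlap, against 1.44% of genes with every type 2 neuron higher and 0.587% with every type 2 neuron lower. With 9 members these shares are near the background. The median difference of the 9 was 0.11, and 0.22 over all 10, beside 0.24 over all genes compared. Counting neurons, members were detected in 28 of 50 cases in type 2 neurons and in 23 of 50 in type 1 neurons. By the same rule, 5993 to 7367 of all genes were detected per type 2 neuron and 5315 to 7073 per type 1 neuron.

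**Figure D3:**
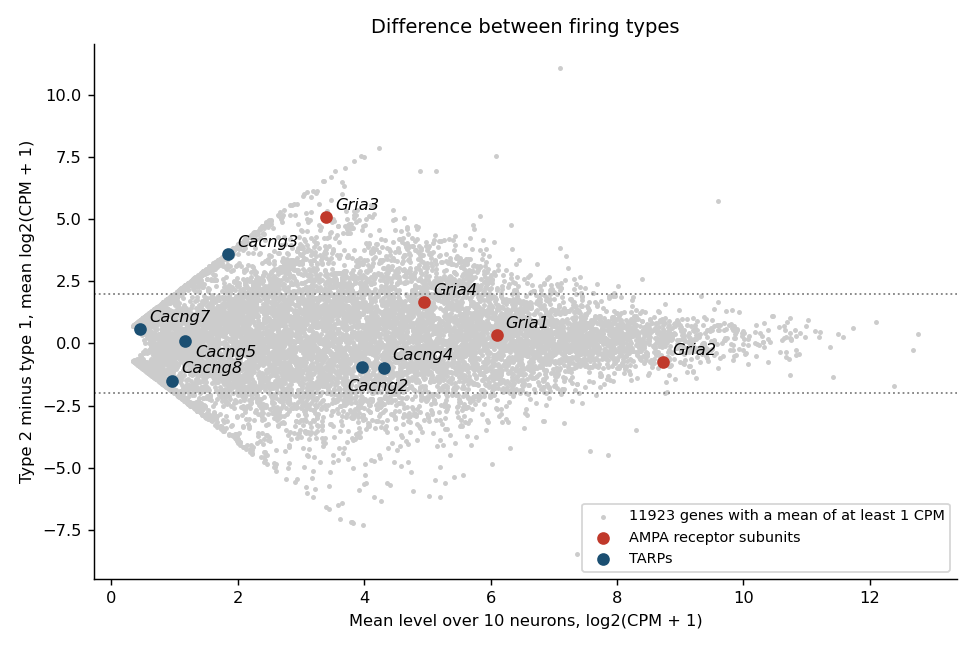
Difference between the types (type 2 minus type 1, mean log2(CPM + 1), vertical) against the mean level over the 10 neurons (horizontal) for 11923 genes in grey and the 10 members in colour; dotted lines mark 4-fold. Gria3 and Cacng3 lie above the upper line, and Gria2, the most abundant member, lies at -0.75; Cacng7 is below the filter applied to the grey genes.

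The members also differed in how evenly they were expressed. The SD of log2(CPM + 1) over the 10 neurons was 3.38 for Gria3, 2.91 for Cacng3 and 2.86 for Gria4, which are percentiles 97.1, 80.3 and 78.0 of the genes compared. It was 1.53 for Gria1 and 1.41 for Cacng2, percentiles 22.4 and 19.5. Cacng4, Cacng5 and Cacng8 lay at percentiles 40.2, 39.3 and 19.3; low genes have little room to vary on this scale.

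**Figure D4:**
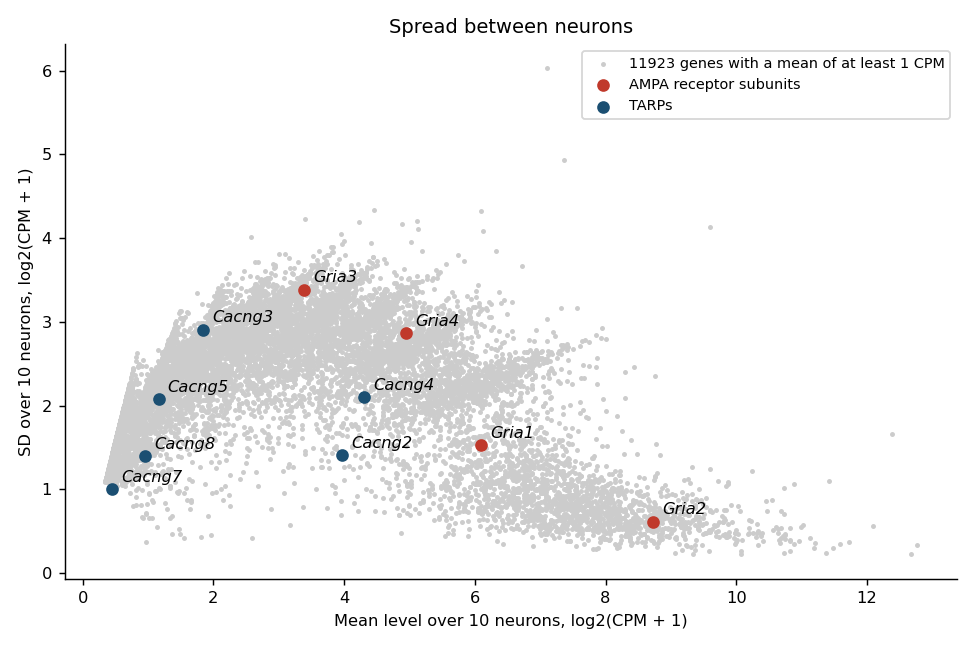
Spread between neurons (SD of log2(CPM + 1), vertical) against the mean level over the 10 neurons (horizontal) for 11923 genes in grey and the 10 members in colour. Gria2 has a high level and an SD of 0.615, while Gria3, Cacng3 and Gria4 have SDs from 2.86 to 3.38.

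Receptor partners were examined through 5 lists, beginning with the other auxiliary subunits; all are small, and their counts are descriptions. Of 8 such genes 6 could be compared, with 0 past 4-fold upwards and 1 downwards and a median difference of -0.45, beside the shares of 13.5% and 7.78% over all genes given above. Cnih2, a cornichon protein that aids receptor export, had the highest median and was detected in all 10 neurons, at 125 to 339 CPM in type 2 neurons and 63.4 to 237 CPM in type 1 neurons; 14 of its exon bases overlap Yif1a on the opposite strand. Shisa6, a transmembrane partner, was the gene past 4-fold, at 0 to 5.72 CPM in type 2 neurons and 0 to 79.7 CPM in type 1 neurons (difference -2.31). It was detected in 0 of 5 type 2 neurons and 2 of 5 type 1 neurons.

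Of 12 genes of receptor assembly and trafficking, 1 passed 4-fold upwards, against 13.5% of all genes, and 3 downwards, against 7.78%, with a median of -0.25. Nsf, an ATPase that binds GluA2, was highest, at 679 to 1400 CPM in type 2 neurons and 427 to 1321 CPM in type 1 neurons. Sacm1l, a phosphoinositide phosphatase, was higher in type 2 neurons (75.0 to 186 CPM, against 0 to 199 CPM in type 1 neurons; difference 2.30). The 3 lower genes were Grip1, Grip2 and Snx27. Grip1, a PDZ protein that binds GluA2 and GluA3, lay at 0 to 37.4 CPM in type 2 neurons and 0.311 to 383 CPM in type 1 neurons (difference -2.57). Its relative Grip2 lay at 0 to 21.1 CPM in type 2 neurons and 0.860 to 77.1 CPM in type 1 neurons (difference -2.87). Snx27, a sorting nexin of recycling endosomes, lay at 6.42 to 191 CPM in type 2 neurons and 77.3 to 310 CPM in type 1 neurons (difference -2.64). The ranges of all 4 overlapped.

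Of 12 scaffold genes, 1 passed 4-fold upwards and 2 downwards, near the 13.5% and 7.78% of all genes, with a median of -0.47. Dlg1, the gene of SAP97, had the highest median, at 14.5 to 111 CPM in type 2 neurons and 9.14 to 137 CPM in type 1 neurons. Dlgap1, which links PSD-95 to Shank proteins, was detected in 2 of 5 type 2 neurons and 5 of 5 type 1 neurons, at 0.0276 to 48.5 CPM in type 2 neurons and 39.1 to 205 CPM in type 1 neurons (difference -4.12). Shank2 lay at 0 to 62.4 CPM in type 2 neurons and 6.14 to 181 CPM in type 1 neurons (difference -3.19). Homer1, a partner of Shank proteins, went the other way, at 0.191 to 140 CPM in type 2 neurons and 0 to 11.0 CPM in type 1 neurons (difference 3.11).

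Across the 5 lists, ranges did not overlap for 2 genes, Olfm1 (lower in type 2 neurons, as for 0.587% of all genes) and Prkca (higher, as for 1.44%). Of 9 extracellular partners 8 could be compared, with 1 past 4-fold upwards (13.5% of all genes), 0 downwards (7.78%) and a median of -0.65. Olfm1, a secreted olfactomedin found in AMPA receptor complexes, lay at 126 to 323 CPM in type 2 neurons and 469 to 1457 CPM in type 1 neurons, with no overlap (difference -1.94). Its relative Olfm2 lay at 95.4 to 441 CPM in type 2 neurons and 0 to 217 CPM in type 1 neurons (difference 2.76). The third olfactomedin of the list, Olfm3, named here after its values were seen, had a difference of 1.19. Of 7 editing enzymes and kinases 6 could be compared, with 1 past 4-fold upwards (13.5% of all genes), 0 downwards (7.78%) and a median of -0.31. Prkca, a protein kinase C, was detected in 5 of 5 type 2 neurons and 0 of 5 type 1 neurons, at 24.6 to 68.5 CPM in type 2 neurons and 0 to 0.932 CPM in type 1 neurons, with no overlap (difference 4.81). Camk2b, a calmodulin-dependent kinase, had the highest median, at 106 to 367 CPM in type 2 neurons and 83.3 to 589 CPM in type 1 neurons. Adarb1, the enzyme that edits the marked codon of Gria2 and a gene named here after its values were seen, was detected in 4 of 5 type 2 neurons and 1 of 5 type 1 neurons. It lay at 0.0954 to 61.7 CPM in type 2 neurons and 0 to 134 CPM in type 1 neurons (difference 1.32).

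**Figure D5:**
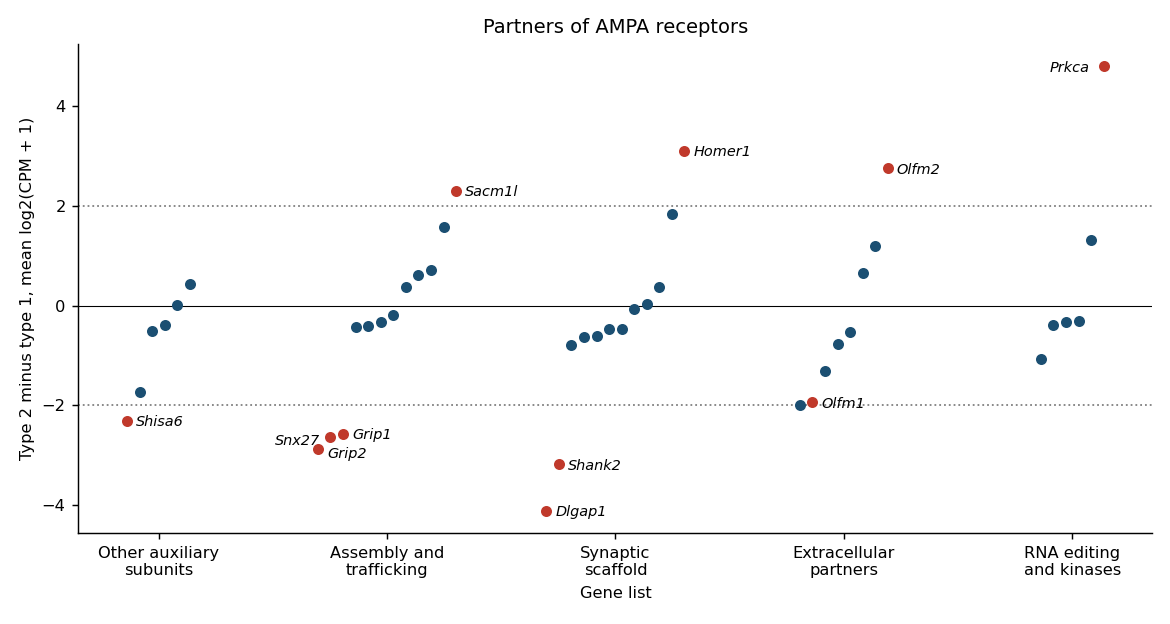
Difference between the types (type 2 minus type 1, mean log2(CPM + 1)) for the compared genes of 5 partner lists; red points with names are past 4-fold or have ranges that do not overlap, and dotted lines mark 4-fold. Dlgap1 and Shank2 lie lowest, at -4.12 and -3.19, and Prkca highest, at 4.81.

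The genes whose levels ran most like those of a member across the 10 neurons were named by Pearson r of log2(CPM + 1) among 7251 protein-coding genes detected in at least 4 neurons. The 10 points are single cells of 2 types, which share library and depth, so r is a description. Rab8a (0.89) and Fcho1 (0.88) were closest to Gria1. Kcnd2, the gene of the A-type potassium channel Kv4.2 (0.90), and Scaf4 (0.90) were closest to Gria2; Kcnd2 averaged 4.82 CPM in type 2 neurons and 125 CPM in type 1 neurons. Adgra3 (0.96) and Nnmt (0.96) were closest to Gria3, and both averaged under 0.13 CPM in type 1 neurons. Dohh (0.97) and Prkcz (0.96) were closest to Gria4, Tsg101 (0.86) and Rab3c (0.86) to Cacng2, and Scand1 (0.92) and Mfsd14a (0.91) to Cacng4. Above 0.9 there were 14 genes for Gria3 and 16 for Gria4, and 0 for Gria1 and Cacng2.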

How the data were processed

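RNA of 10 single neurons was sequenced, 1 library per neuron. The deposited values are counts of reads per Ensembl gene, per the file headers and their whole-number values, with no normalization and no molecular identifiers. Per the submitters' processing notes, cutadapt 1.13, STAR, HTSeq 0.6.1p1 and DESeq2 were used with mm10. No source used here gives the gene annotation, strandedness or amplification.

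From the counts, CPM was computed on library totals, and levels as log2(CPM + 1). Lengths, coordinates and sequences came from GENCODE M21 on GRCm38, and per-length levels are CPM per kb of the union of annotated exons. A gene counted as detected at 10 CPM and 3 counts, was compared if its mean reached 1 CPM, and was called when the means of log2(CPM + 1) differed by at least 2 (4-fold). Each library is 1 cell and no animal is named, so a type is 1 sample and no test or p-value was computed. Intervals are exact (Poisson for summed counts, Clopper-Pearson for shares of neurons, 95%). A count of 0 was taken to allow 3 counts. Named were all members, the called or separate genes and the highest gene by median of each partner list, the leading gene of each list of other cells, and the 2 genes most like each member detected in at least 4 neurons. Members and lists were chosen with earlier results of these data known. Alternatives were other pseudocounts, scalings (TMM, totals without the 50 most abundant genes, thinning to 9796799 counts), filters, lengths and sets of neurons; those of the mixes without neurons 6-2, 9-2 and 9-4, in libraries over 20000000 counts, in neurons numbered 9 and by coding length were added after seeing the data. The scripts were tested on simulated data. Tools were Python 3.11.15, numpy 2.4.6, scipy 1.17.1, pandas 2.3.3, matplotlib 3.10.9, Biopython 1.88, and edgeR 4.0.16 in R 4.3.3 for TMM factors only.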

Additional observations from a re-analysis of the deposited data

Results flagged for a closer look

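In 10 of 24 sets of 5 neurons examined, 1 neuron stood far from the other 4, meaning that its gap to the nearest made up over 0.71 of the whole range; chance flags about 1 set in 20, and genes that are on in 1 neuron and off in the rest meet this often. Among type 2 neurons, 10-3 was low in Gria3 (0.994 CPM, against 61.3 to 241 CPM; gap 0.718 of the range on the log2 scale). Neuron 9-4 was low in Cacng4 (0.0954 CPM, against 18.6 to 37.0 CPM; gap 0.814). Neuron 9-2 was high in Cacng5 (57.0 CPM, against 0 to 0.138 CPM; gap 0.968) and in Cacng7 (8.31 CPM, against 0 to 0.410 CPM; gap 0.846), and its class I share of the TARP level was low (41.7%, against 99.4% to 100%; gap 0.990).

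Among type 1 neurons, 1-1 was low in Gria2 (294 CPM, against 579 to 707 CPM; gap 0.772), and 4-3 was high in Gria3 (7.35 CPM, against 0.0722 to 0.542 CPM; gap 0.823). Neuron 8-2 was the only one with Cacng3 reads (0.215 CPM, against 0; gap 1.0), and 4-3 was highest in Cacng7 (0.612 CPM, against 0 to 0.0668 CPM; gap 0.865). Neuron 9-1 had a low class I share (60.4%, against 93.4% to 100%; gap 0.832).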

How the results depend on the processing

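The Gria2 share was lower in type 2 neurons in every alternative, with a difference of -36.8 to -27.1 percentage points with 1 neuron left out. In the 3 neurons numbered 9, of which 1 is type 1, the difference was -64.4 points. Because the ranges were separate, leaving out neurons could change the size of this difference but not its sign. Gria3 passed 4-fold in all 21 alternatives of that count and Cacng3 in 20. The 10 of these that leave out 1 neuron could not have brought either gene under 4-fold. The changed filters leave the difference of a gene as it is. Members 4-fold higher in type 2 neurons numbered 1 of 9 with a pseudocount of 10 CPM, against 2.31% of all genes compared. In the neurons numbered 9 they numbered 4 of 10, against 34.0% of all genes. Members 4-fold lower numbered 1 (Cacng8) with a pseudocount of 0.1 CPM, against 12.5% of all genes. The same number was lower by medians over neurons (10.4% of all genes) and in the neurons numbered 9 (20.5%). Members with separate ranges numbered 0 to 1 with 1 neuron left out, Gria3 without 10-3 or 4-3 and Gria2 without 1-1. Those are the neurons whose values made the ranges overlap. The share of all genes with separate ranges was not computed for these sets of neurons. At 50 CPM, detections numbered 19 of 50 in type 2 neurons and 13 of 50 in type 1 neurons. The number of all genes detected at that limit was not computed. The median difference of all genes was 0.39 with TMM scaling, against 0.24 on library totals, and that of Gria2 was then -0.53. Of the differences of single members and of the Gria1, Gria3, Gria4 and joint Cacng2 and Cacng4 shares, 252 stayed within 1 SD and 6, all in the neurons numbered 9, moved further, besides the Gria2 share above. Leaving out 1 neuron cannot shift such a difference by 1 SD, so the values of that kind among the 252 are no sign of stability. The sign held in all 19 alternatives for Gria2, Gria3, Cacng3 and Cacng8 and in 11 to 18 for the rest. Leaving out 1 neuron could not have turned the sign of Gria2, Gria3, Cacng3 or Cacng8. The cause of the turns in the rest was not tested. Depth limits little for genes at 10 CPM or more, but values of a few counts are uncertain, and intervals cover counting error only. No paired analysis was possible because no result comes from a test and what a shared first number stands for is not stated.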
